A study of Mus musculus with 34 samples.

Results

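The pooled single-cell table of mouse mammary tumours holds 4016 cells in 2 barcode sets, with 1508 cells in set 1 and 2508 in set 2, out of 46386 single-cell barcodes in the series of 34 samples. Cells were compared between the sets within 4 marker gates. The tumour gate took cells with 1 or more Epcam UMI, 5 or more UMIs of the keratins Krt8 and Krt18, and no Ptprc, which encodes the leukocyte antigen CD45. The neutrophil gate took cells with 100 or more UMIs of S100a8 and S100a9 per 10000, the macrophage gate 5 or more UMIs of the C1q genes, and the T gate 2 or more UMIs of Cd3d, Cd3e and Cd3g. Of the 4016 cells, 2951 fell in 1 or more gates. No barcode was shared by the sets.

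The series follows how breast cancer cells survive chemotherapy and which immune checkpoint genes they then carry. The labels describe 2 tumours run this way, both grown from MMTV-Wnt1 tumour cells placed in female C57BL6/j wild-type mice that were 6 to 8 weeks old, to about 200 mm3. MMTV-Wnt1 is a transgene in which a viral promoter drives Wnt1 in mammary epithelium. One labelled tumour received doxorubicin at 4 mg/kg once a day for 5 doses and was taken 48 h after the last, and the other had no treatment. The table does not say which barcode set came from which tumour, so neither set is assigned to a treatment. With 1 library in each set, a difference between sets is a difference between 2 libraries and carries no replicate check. All intervals below are 95% intervals for counting error only.

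Doxorubicin traps topoisomerase II on DNA and breaks both strands. Such breaks stabilise p53, a transcription factor that switches on Cdkn1a, whose product p21 inhibits cyclin-dependent kinases, along with genes for repair and cell death. The same inhibition keeps the DREAM complex on the promoters of mitotic genes, which hold CCAAT boxes and cell cycle homology regions. Interferons act through STAT and IRF factors on a separate set of genes with interferon-stimulated response elements.

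The promoters below are shown because the p53, mitotic and interferon genes carry the main differences between the sets. Each is the 250 bases before an annotated start of the gene, from RefSeq on GRCm38.p6. Where a gene had several starts, only the lowest in coordinate was used, and distances to other starts were not measured. Capitals mark the matches of the motifs searched on both strands. The motifs were 2 copies of CATG with any 6 bases between them for Cdkn1a, 2 copies of GAAA with any 2 bases between them for Isg15 and Ifit1, and TTTGAA with CCAAT for Ccnb2, Cdk1 and Mki67. The windows lie at chr17:29090729-29090978 on the plus strand, chr4:156200819-156201068 on the minus strand, chr19:34640639-34640888 on the plus strand, chr9:70421555-70421804, chr10:69352913-69353162 and chr7:135716380-135716629, the last 3 on the minus strand.
Cdkn1a: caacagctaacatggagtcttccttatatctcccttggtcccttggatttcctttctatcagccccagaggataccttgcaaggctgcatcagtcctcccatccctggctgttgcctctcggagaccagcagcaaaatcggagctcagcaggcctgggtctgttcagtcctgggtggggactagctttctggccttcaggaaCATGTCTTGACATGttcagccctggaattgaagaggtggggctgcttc
Isg15: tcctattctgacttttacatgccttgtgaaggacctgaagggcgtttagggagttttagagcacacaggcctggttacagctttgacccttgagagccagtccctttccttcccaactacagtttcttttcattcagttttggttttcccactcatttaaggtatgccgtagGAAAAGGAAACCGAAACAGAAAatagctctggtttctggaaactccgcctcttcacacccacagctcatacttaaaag
Ifit1: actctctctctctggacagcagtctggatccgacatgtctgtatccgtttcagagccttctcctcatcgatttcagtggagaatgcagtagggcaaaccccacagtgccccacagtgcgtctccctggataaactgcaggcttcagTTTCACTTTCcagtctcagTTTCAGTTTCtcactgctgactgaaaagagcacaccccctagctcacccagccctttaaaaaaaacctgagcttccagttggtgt
Ccnb2: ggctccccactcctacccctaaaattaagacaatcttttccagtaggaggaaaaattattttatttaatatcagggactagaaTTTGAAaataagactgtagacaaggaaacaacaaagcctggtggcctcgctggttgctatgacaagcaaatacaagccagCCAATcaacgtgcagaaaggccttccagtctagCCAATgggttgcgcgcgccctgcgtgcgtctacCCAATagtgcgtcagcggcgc
Cdk1: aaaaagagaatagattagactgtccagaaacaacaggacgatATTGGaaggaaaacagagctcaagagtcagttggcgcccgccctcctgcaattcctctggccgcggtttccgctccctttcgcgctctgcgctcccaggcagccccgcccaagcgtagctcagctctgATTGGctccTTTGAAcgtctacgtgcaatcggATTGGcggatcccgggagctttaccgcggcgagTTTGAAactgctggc
Mki67: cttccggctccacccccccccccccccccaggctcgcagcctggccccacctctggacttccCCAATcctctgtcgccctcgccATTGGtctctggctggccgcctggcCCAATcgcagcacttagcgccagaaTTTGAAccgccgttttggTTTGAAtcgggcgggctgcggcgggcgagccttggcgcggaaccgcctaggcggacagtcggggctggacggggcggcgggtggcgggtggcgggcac

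The Cdkn1a match lay 48 to 35 bases before the start used, which need not be the main start of the gene. Cdkn1a was the 1 gene of 22 matched p53 targets with it (4.55%), against 132 of 27025 promoters (0.488%). In Isg15 the 3 matches overlap one another. The GAAA pair stood in 9 of 23 matched type I interferon response genes (39.1%) against 3.06% of all promoters. CCAAT stood in 26 of 33 matched mitotic genes (78.8%) against 34.2%, TTTGAA in 9 (27.3%) against 16.3%, and both in 9 against 5.67%. In the 3 mitotic promoters shown, TTTGAA and CCAAT do not overlap. These are matches of letters in short windows and no binding was measured here.

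The sets differed in their makeup. Set 1 had 41.7% of its cells in the tumour gate (629 cells, interval 39.2% to 44.2%) and set 2 had 25.3% (635 cells, 23.6% to 27.1%). Macrophage-gate cells went the other way, at 9.62% of set 1 (145 cells, 8.17% to 11.2%) and 22.8% of set 2 (571 cells, 21.1% to 24.5%). Neutrophil-gate cells made up 17.3% of set 1 (261 cells) and 11.6% of set 2 (292 cells). T-gate shares were 12.1% (183 cells, 10.5% to 13.9%) and 10.9% (274 cells, 9.73% to 12.2%), and these intervals overlap. No gate took 20.6% and 30.1% of the sets, and 1.39% and 0.718% fell in more than 1 gate.

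Most gates count UMIs, so their shares depend on depth. Set 1 held 17394164 UMIs and set 2 held 34565463, with medians of 6636 and 7203 per cell. Within the macrophage gate the medians were 3709 and 16345 UMIs, within the tumour gate 13507 and 25691, within the neutrophil gate 3859 and 3050, and within the T gate 8741 and 7186.5. With every cell thinned to 2000 UMIs, leaving out 209 and 279 shallower cells, tumour shares were 33.3% and 16%, macrophage shares 5.70% and 20.2%, neutrophil shares 17.2% and 11.8%, and T shares 11.9% and 10.5%. Among the cells of the 3 immune gates, neutrophils were 44.3% in set 1 and 25.7% in set 2, macrophages 24.6% and 50.2%, and T cells 31.1% and 24.1%. How tissue was dissociated and loaded can set these shares, and its part was not tested.

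**Figure D1:**
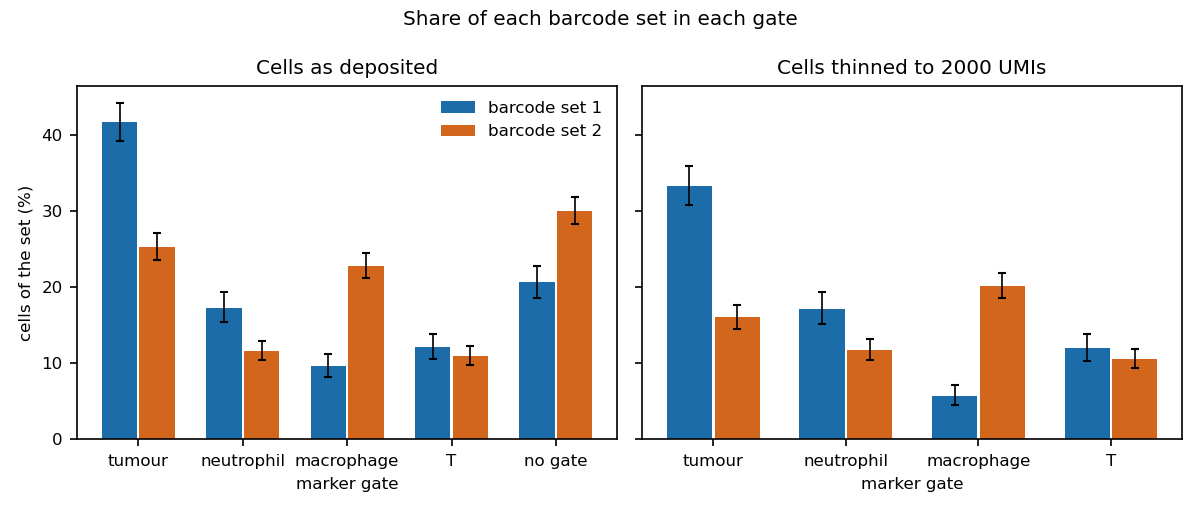
Share of each barcode set in each gate, in percent of the set's cells, for cells as deposited (left) and thinned to 2000 UMIs (right), with bars for set 1 and set 2 and Clopper-Pearson 95% intervals. The tumour bar is taller in set 1 (41.7% against 25.3%) and the macrophage bar in set 2 (22.8% against 9.62%), and both orders are the same after thinning.

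Marker levels were summed in each gate. The sums include the genes that set the gates, which are high there by rule, so they are no check of the gates. In the tumour gate all 11 epithelial markers were detected in both sets, summing to 138 and 100 UMIs per 10000. Epcam, a gate gene, stood at 13 in set 1 and 12.8 in set 2 against 0.511 to 1.59 in the other gates. Cldn3, a marker that no gate uses, was at 10.0 and 7.25, against 0.922 and 0.256 in the neutrophil gate. Wnt1 gave 85 and 68 UMIs in the tumour gate and at most 3 in any other gate of a set. Per 10000 UMIs it was at 0.0758 and 0.0395 in the tumour gate, 1.92-fold toward set 1 (1.38 to 2.68). The counts do not separate the transgene from the mouse gene. Macrophage markers summed to 115 and 155 in their gate, T markers to 48.7 and 46.7, and neutrophil markers to 745 and 908. Tumour epithelial markers were also found in the immune gates, all 11 of 11 in each, and were higher there in set 1: 9.27 and 4.40 in the neutrophil gate, 17.7 and 4.41 in the macrophage gate, and 18.5 and 9.36 in the T gate.

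Haemoglobin RNA separated the libraries. It summed to 4.62, 59.0, 10.4 and 7.49 UMIs per 10000 in the tumour, neutrophil, macrophage and T gates of set 2, and to at most 0.00516 in those of set 1. The haemoglobin gene Hbb-bs had 0 UMIs in all 4 gates of set 1. The nuclear RNA Malat1 was at 191 in set 1 and 91.6 in set 2 in the tumour gate. The part of either in the results below was not tested. Some results that depend on the cells with haemoglobin UMIs are named, but not all. Without those cells, 46 gene ratios and 4 list medians moved past the limits given near the end. In addition, 2 gene ratios of 2-fold or more changed sign.

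In the tumour gate, p53 target genes were higher in set 1 and genes of the cell cycle were higher in set 2. Of 11939 genes counted, 1040 were 2-fold or more higher in set 1 (8.71%) and 814 in set 2 (6.82%), 15.5% in either direction, with a median log2 ratio of set 2 over set 1 of -0.14. Calls toward set 2 were 43.9% of the total, and 60.2% with TMM scaling, which moved that median to 0.05. Without the cells with haemoglobin UMIs, 905 genes were 2-fold or more higher in set 1 and 552 in set 2. Of 30 p53 targets, 27 were counted, 14 were 2-fold or more higher in set 1 and none in set 2, and 25 of the 27 ratios pointed to set 1. The list median was -1.12.

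Cdkn1a was at 7.48 UMIs per 10000 in set 1 (7.32 to 7.64) and 0.615 in set 2 (0.579 to 0.654), which is 12.2-fold (11.4 to 13). It was spread over many cells: 75.5% of 538 set 1 cells thinned to 5000 UMIs had a Cdkn1a UMI, and 18.0% of 573 set 2 cells. Without thinning the shares were 83.3% and 36.5%. In the T gate they were 42.2% and 24.3% after thinning and 47.5% and 31.8% before, and T cells also express Cdkn1a. The median over set 1 cells was 3.87 UMIs per 10000 and the median over set 2 cells was 0.

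Other arrest and feedback genes lay on the same side. Ccng1, which encodes cyclin G1, was at 0.660 in set 1 and 0.157 in set 2, a 4.19-fold difference. Trp53inp1, a p53-induced nuclear protein, was at 1.28 and 0.323, 3.96-fold. Zmat3, an RNA-binding protein, was at 0.377 and 0.0860, 4.38-fold. Mdm2, the ubiquitin ligase that returns p53 to low levels, was at 0.661 and 0.352, 1.88-fold and so short of 2-fold. Btg2, an antiproliferative gene, was abundant in both, at 16.8 and 6.80. Trp53 itself was at 0.985 in set 1 and 1.33 in set 2, so the RNA of the factor was not on the side of its targets.

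Death and stress genes of the p53 list followed. Eda2r, a receptor of the tumour necrosis factor receptor family, was at 0.0891 and 0.00930, 9.59-fold with an interval of 5.62 to 17.4 from 100 and 16 UMIs. Fas, another death receptor, was 3.32-fold higher in set 1, and Bax, which permeabilises mitochondria, was at 2.69 and 1.20, 2.24-fold. The secreted stress factor Gdf15 was at 0.339 and 0.0761, 4.45-fold. Ephx1, an epoxide hydrolase, was at 1.66 and 0.269, 6.17-fold, and had a UMI in 55.4% and 13.1% of thinned cells (77.6% and 40.0% unthinned), against 5.84% and 4.85% of thinned T-gate cells. Perp was the 1 p53 target with an interval on the side of set 2, at 1.12 and 1.46. Plk3, Pmaip1 and Tigar were too low relative to another gate to be counted. Outside the p53 list, Bcl2 and Bcl2l1, which oppose cell death, were 2.50-fold and 2.25-fold higher in set 1, and Bok, a BAX relative, was 6.96-fold higher in set 2.

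**Figure D2:**
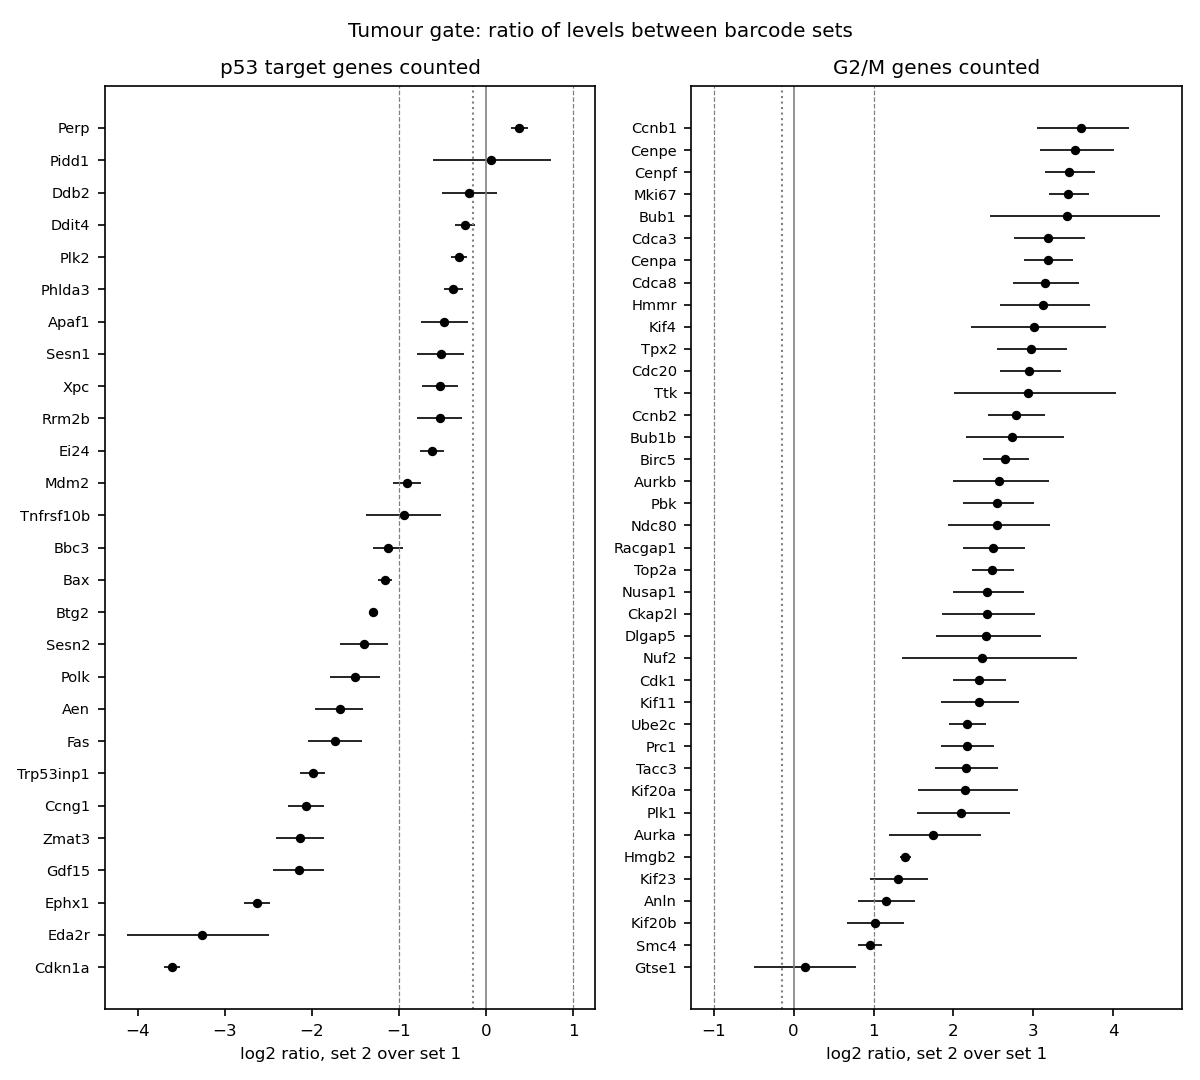
Log2 ratio of set 2 over set 1 in the tumour gate for the p53 target genes (left) and the G2/M genes (right) that were counted, with counting intervals; dashed lines mark 2-fold and the dotted line the median of all genes counted. The 27 p53 ratios run from -3.60 for Cdkn1a to 0.38 for Perp, and all 39 G2/M ratios lie above 0.

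Mitotic genes lay on the side of set 2. All 39 G2/M genes were counted, 37 were 2-fold or more higher in set 2, none in set 1, and the median log2 ratio was 2.50. Mki67, a marker of cycling cells, was at 0.122 UMIs per 10000 in set 1 (0.103 to 0.144) and 1.32 in set 2 (1.27 to 1.38), 10.8-fold (9.12 to 13). Ccnb1, which encodes cyclin B1, was at 0.025 and 0.300, 12-fold, and its partner kinase Cdk1 at 0.0775 and 0.386, 4.98-fold. The kinetochore motor Cenpe was 11.5-fold higher in set 2. Top2a, the topoisomerase II form of dividing cells that doxorubicin acts on, was at 0.117 and 0.655, 5.61-fold, while Top2b, the form of all cells, was at 1.01 and 1.17. Smc4 at 1.93-fold and Gtse1 at 1.10-fold were the 2 genes short of 2-fold.

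Replication genes were on the same side with smaller ratios. Of 35 S phase genes, 25 were 2-fold or more higher in set 2, none in set 1, and the median was 1.20. Mcm3, part of the replicative helicase, was at 0.0856 and 0.354, 4.14-fold, and Uhrf1, which carries DNA methylation through replication, was 6.35-fold higher in set 2. Pcna, the sliding clamp and also a p53 target, was at 0.946 in set 1 and 0.848 in set 2, close to equal. Of 25 DNA repair genes counted, 7 were 2-fold or more higher in set 2 and none in set 1, among them Brca1 (4.20-fold), of homologous recombination.

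Of the cyclins and inhibitors, Rb1, the retinoblastoma repressor, was at 2.20 in set 1 and 0.593 in set 2, 3.71-fold. Cdkn2a, which encodes p16 and p19ARF, was at 0.135 and 0.0477, 2.84-fold. Ccne1 (2.93-fold) and Cdk4 (2.30-fold) were higher in set 2. Ccnd1, which encodes cyclin D1, was at 5.22 and 5.88, and Cdkn1b, which encodes p27, at 1.22 and 1.02, so the G1 entry cyclin and the second inhibitor differed little beside Cdkn1a.

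Dividing cells were counted by 3 or more G2/M UMIs in a cell thinned to 5000 UMIs. They were 17.3% of 538 set 1 cells (93 cells, 14.2% to 20.8%) and 44.9% of 573 set 2 cells (257 cells, 40.7% to 49.0%), with 91 and 62 shallower cells left out. The unthinned shares were 59.1% and 81.9%, and the class is a range of a count, not a cell type. Cdkn1a was as far apart among dividing cells, at 7.25 in set 1 and 0.580 in set 2, as among the rest, at 7.61 and 0.660. In set 1, 81.7% of dividing cells (76 of 93, 72.3% to 89.0%) and 74.2% of the others (330 of 445, 69.8% to 78.2%) had a Cdkn1a UMI, and in set 2 the shares were 17.9% and 18.0%. Mki67 in the dividing cells was at 0.662 in set 1 and 2.64 in set 2, and 23 set 1 cells (4.28%) and 156 set 2 cells (27.2%) reached 5 G2/M UMIs. Among cells not called dividing the G2/M median was 1.07, the S phase median 0.28 and the p53 median -0.92.

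**Figure D3:**
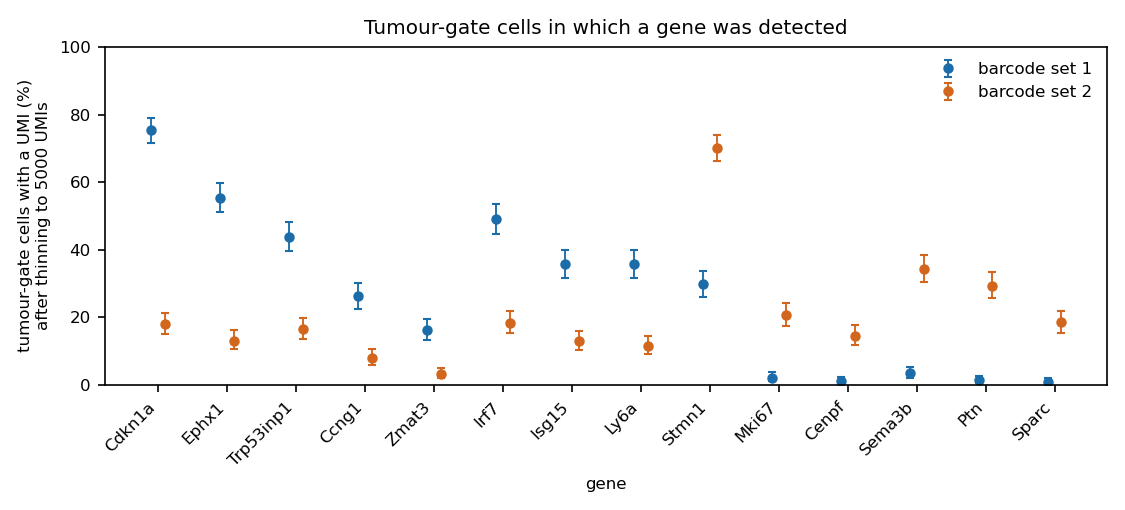
Percent of tumour-gate cells with a UMI of each gene after thinning to 5000 UMIs, with Clopper-Pearson 95% intervals, for set 1 (538 cells) and set 2 (573 cells). Cdkn1a was detected in 75.5% of set 1 cells and 18.0% of set 2 cells, Mki67 in 2.04% and 20.6%.

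Interferon response genes were higher in set 1. Of 26 type I interferon response genes counted in the tumour gate, 25 were 2-fold or more higher in set 1, all 26 were higher there, and the median was -1.89. Irf7, the transcription factor that amplifies the response, was at 1.91 and 0.424, 4.50-fold (4.14 to 4.90), and was found in 49.1% and 18.3% of thinned cells (72.3% and 39.8% unthinned), against 33.1% and 14.6% of thinned T-gate cells. Isg15, a ubiquitin-like modifier, was at 1.86 and 0.490, 3.79-fold, and Oas1a, a sensor of double-stranded RNA, was 8.90-fold higher in set 1. Of 20 interferon-gamma response genes, 15 were 2-fold or more higher in set 1. The T cell attractants Cxcl9 (1.0 and 0.314) and Cxcl10 (1.09 and 0.361) were in few cells, 35 and 23 cells for Cxcl9, and 1 cell held 27.3% of its set 1 UMIs. Of 19 MHC class I genes, 5 passed 2-fold, with H2-K1 at 30.9 and 16.1 and B2m at 15.7 and 7.90, both just short. Genes of the Ifit, Oas, Gbp and H2 families have close copies, and how reads were divided between copies is not given in the sources used here.

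Inflammatory and immediate early genes leaned to set 1 as well. Of 14 NF-kB targets counted, 9 were 2-fold or more higher in set 1, with the cytokine Tnf at 0.783 and 0.142, 5.50-fold. Of 21 immediate early genes, which also respond to tissue dissociation, 10 were, with Egr1 at 28.5 and 10.0 and Fos at 86.7 and 40.1. No gene of either list was 2-fold or more higher in set 2.

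Checkpoint ligands are genes whose proteins restrain T cells or myeloid cells. Of 25, 12 were counted, 3 were 2-fold or more higher in set 1 and 9 were within 2-fold. Their median was -0.20, against -0.14 for all genes counted, and -0.0091 with TMM scaling. Nt5e, which encodes the adenosine-producing enzyme CD73, was at 0.397 and 0.0639, 6.20-fold. Cd200, a ligand of a myeloid inhibitory receptor, was at 0.964 and 0.393, 2.45-fold, with a UMI in 33.6% and 17.8% of thinned cells (55.3% and 43.9% unthinned). In thinned T-gate cells the Cd200 shares were 5.19% and 14.1%, and the set 2 intervals of the tumour gate (14.8% to 21.2%) and the T gate (9.64% to 19.6%) overlap. Lgals9, which encodes galectin-9, was 2.28-fold higher in set 1. Pvr was at 0.158 and 0.169. Cd274, which encodes PD-L1, was at 0.0660 and 0.0227 from 74 and 39 UMIs and Cd80 had 3 and 4 UMIs, and neither reached the level filter. Cd274 was detected in 1.67% and 1.05% of thinned tumour-gate cells (7.47% and 3.62% unthinned) against 26.0% and 10.2% of thinned T-gate cells. The part of RNA from other cells in the tumour-gate shares was not tested.

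Mammary differentiation genes differed by program. Of 11 milk genes counted, 8 were 2-fold or more higher in set 1, including lactoferrin Ltf at 4.81 and 0.525 (9.16-fold) and the casein Csn3 at 47.2 and 18.3 (2.58-fold). Of 21 luminal genes, 7 were 2-fold or more higher in set 1. Of 13 basal genes, 4 were 2-fold or more higher in set 1 and 7 in set 2: Acta2, the smooth muscle actin of myoepithelium, was at 0.234 and 1.24, and Trp63 at 0.0606 and 0.202, while the keratin Krt14 was at 2.25 and 0.255 with 28.6% of its set 1 UMIs in 1 cell. Of 13 squamous genes, 8 were 2-fold or more higher in set 1, but few cells held them. Single cells held 89.4% of the set 1 UMIs of the cornified envelope gene Sprr1a and 95.5% of those of Krtdap, and without cells that had basal or squamous keratin or Acta2 UMIs the list median went from -2.04 to -0.39.

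Wnt targets and metabolism leaned to set 2. Of 17 Wnt pathway genes, 7 were 2-fold or more higher in set 2 and 1 in set 1. The feedback inhibitor Nkd1 had 2 UMIs in set 1 and 218 in set 2 (0.00178 and 0.127, 71.1-fold with an interval of 19.4 to 591), and Wif1, a secreted Wnt inhibitor, was at 0.0374 and 0.264. Axin2, a general Wnt target, was at 0.0642 and 0.0947, 1.48-fold. Wnt1 itself lay toward set 1, at 0.0758 and 0.0395. Of 20 hypoxia and glycolysis genes, 8 were 2-fold or more higher in set 2 and 1 in set 1, with Gapdh at 6.60 and 16.1 and Pgk1 at 0.810 and 3.44. Of 22 cholesterol synthesis genes, 5 were 2-fold or more higher in set 2 and none in set 1.

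Chosen by size of ratio, the genes higher in set 2 were mostly matrix and secreted factors. The matrix protein Sparc was at 0.0267 and 1.39, 52.2-fold, the growth factor Ptn at 0.150 and 3.68, 24.6-fold, and the semaphorin Sema3b at 0.164 and 3.55, 21.7-fold. Basement membrane collagens Col4a1 (0.218 and 3.11, 14.3-fold), Col4a2 (21-fold) and Col18a1 (9.97-fold) were also among the 10, with Mki67, Cxcl14 and Gpx2. Ptn had a UMI in 1.30% and 29.3% of thinned tumour-gate cells (2.86% and 41.3% unthinned) and in 0.649% and 2.91% of T-gate cells. Fibroblast markers summed to 0.0972 and 0.117 in the tumour gate and endothelial markers to 0.331 and 0.317, but the endothelial genes behind that sum differed. Flt1 had 227 and 93 UMIs and Pecam1 124 and 98, while the other 6 were higher in set 2. Among them Egfl7 was at 15 and 144 UMIs and Cdh5 at 0 and 55. In set 2 the Egfl7 UMIs were in 66 cells, but those of Cdh5 were in 2, of Cldn5 in 1 and of Emcn in 3. Without thinning, cells with 3 or more endothelial UMIs were 5.88% and 2.05% of the gate, and their part was not tested. Cells with 3 or more UMIs of basal or myoepithelial markers were 7.15% and 22.8% of the gate, also without thinning, and set 2 was deeper. The summed level of these markers went the other way, at 2.93 and 1.94 UMIs per 10000, of which Krt14 made up 2.25 and 0.255. Among cells with no basal or squamous keratin or Acta2 UMI the log2 ratios were 6.28 for Sparc, 5.33 for Sema3b, 3.81 for Ptn and 3.18 for Col4a1, all still toward set 2.

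The 10 genes higher in set 1 were Klk6, Cst6, Cdkn1a, Gm42047, Ltf, Krt14, Gas6, Ephx1, Ly6a and Sbsn. Klk6, a secreted protease, had 3670 UMIs in set 1 and none in set 2. The ratio was 1876-fold with set 2 put at the floor of 3 UMIs, and the interval began at 1525. However, 92.5% of the Klk6 UMIs were in 1 of 13 cells, and without that cell the ratio was 142-fold. Single cells held 85.0% of the Cst6 UMIs and 67.2% of the Sbsn UMIs of set 1, and without them the ratios were 2.19-fold and 1.86-fold. Gas6, a ligand of TAM receptors, was 6.09-fold higher in set 1 and Ly6a, the surface antigen Sca-1, was at 3.63 and 0.615, 5.90-fold. Of the secretory list, Igfbp5 was at 67.1 and 20.8 and Igfbp4 at 0.0339 and 0.814, 24.0-fold toward set 2, so insulin-like growth factor binding proteins lay on both sides.

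**Figure D4:**
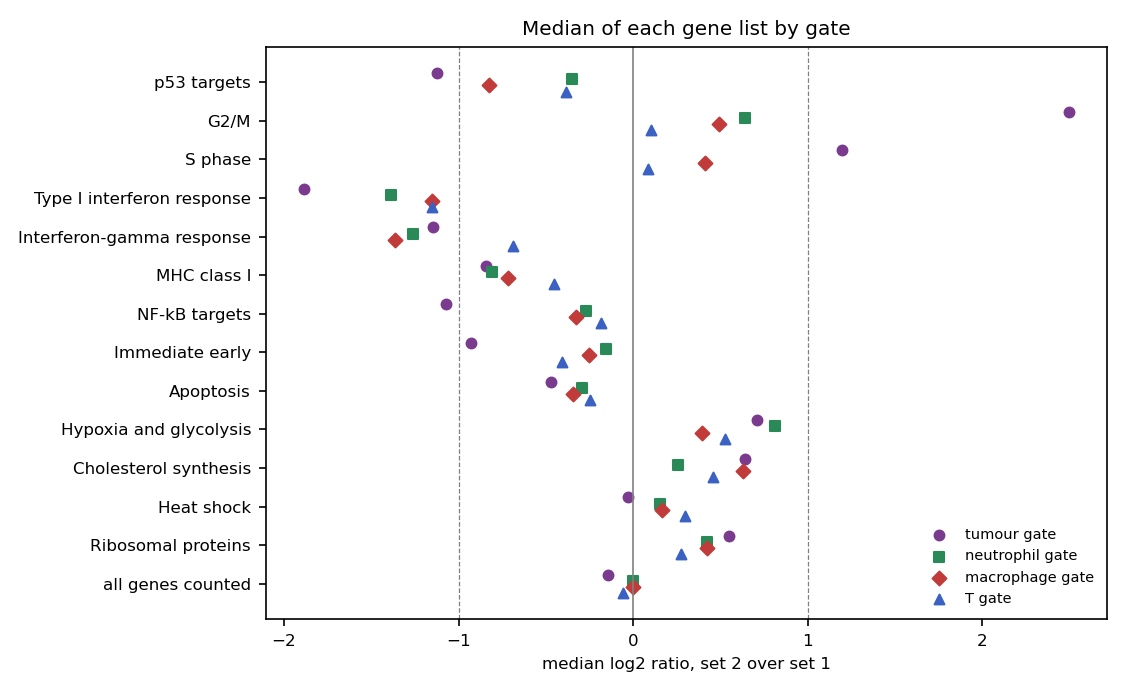
Median log2 ratio of set 2 over set 1 for gene lists in the 4 gates, with dashed lines at 2-fold. The tumour gate stands at 2.50 for G2/M and -1.12 for p53 targets, and the type I interferon medians lie at -1.89, -1.39, -1.15 and -1.15 in the tumour, neutrophil, macrophage and T gates.

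In the neutrophil gate, too, type I interferon genes were higher in set 1. Of 4538 genes counted, 201 were 2-fold or more higher in set 1 (4.43%) and 83 in set 2 (1.83%), 6.26% in either direction. Calls toward set 2 were 29.2% of the total and 39.1% with TMM scaling. Of 27 type I interferon genes, 21 were 2-fold or more higher in set 1, with a median of -1.39 against -0.00 for all genes counted. Rsad2, which encodes the antiviral enzyme viperin, was at 4.80 and 1.16, 4.14-fold, Ifit1 at 2.74 and 0.718 and Irf7 at 2.13 and 0.580. The chemokine Ccl2 was at 1.45 and 0.128, 11.4-fold, and 1 cell held 25.6% of its set 1 UMIs. Klk6 and Cst6 ranked first toward set 1, but single cells held 98.2% and 90.5% of their UMIs there. Tumour epithelial markers in this gate summed to 9.27 and 4.40, and their part was not tested. Cd274 was at 3.39 and 1.45, 2.33-fold (1.92 to 2.83), while Cd80 was at 1.39 and 1.22.

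Of 14 p53 targets counted in neutrophils, 2 were 2-fold or more higher in set 1, Bbc3 and Fas, with a median of -0.35. Cdkn1a was at 21.1 and 19.0, higher than in any other gate of either set and 1.11-fold apart. Glycolysis and hypoxia genes were higher in set 2: 7 of 19 passed 2-fold, with Gapdh at 15.0 and 33.4 and the hypoxia gene Bnip3 at 0.984 and 3.02. Of 14 granule genes, 5 were 2-fold or more higher in set 2. The mature granule gene Retnlg was at 9.65 and 26.2, whereas Elane, Prtn3, Mpo and Ngp, made by immature cells, had 84.0% to 100% of their set 2 UMIs in 1 cell. The inflammatory genes Il1b (138 and 153) and Cxcl2 (225 and 160) were abundant in both sets, and Ccl4 was at 22 and 8.57.

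In the macrophage gate, 403 of 9273 genes were 2-fold or more higher in set 1 (4.35%) and 358 in set 2 (3.86%), 8.21% in either direction, and calls toward set 2 made up 47.0%, 62.4% with TMM and 67.9% with a mean over cells. Without the cells with haemoglobin UMIs, which were 48.5% of the set 2 cells in this gate, 202 genes were 2-fold or more higher in set 2. Of 24 p53 targets, 9 were 2-fold or more higher in set 1 and none in set 2, with a median of -0.83. Trp53inp1 was at 0.461 and 0.0753, 6.12-fold, Ccng1 at 0.914 and 0.321, and Mdm2 at 1.26 and 0.537, while Cdkn1a was at 6.80 and 3.70, 1.84-fold. Tumour epithelial markers in this gate, at 17.7 and 4.41 as given above, moved with these genes and their part was not tested. Of 37 G2/M genes, 9 were 2-fold or more higher in set 2, with Mki67 at 0.281 and 0.960, 3.42-fold, and a median of 0.49 that was 1.29 with a mean over cells.

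Of 27 type I interferon genes in macrophages, 18 were 2-fold or more higher in set 1, all 27 were on that side except that Rsad2, at a log2 ratio of -0.06, changes side with TMM scaling, and of 21 interferon-gamma genes 15 were. Irf7 was at 1.66 and 0.384, and Cd274 at 1.0 and 0.381, 2.63-fold (2.13 to 3.22). Of 14 tissue-resident macrophage genes, 4 were 2-fold or more higher in set 2, 1 in set 1 and 9 within 2-fold, and the median of 0.26 became 0.031 with a mean over cells. Folr2 was at 0.336 and 0.94. Cx3cr1, the fractalkine receptor, was at 2.31 and 4.83 and Fcrls at 1.23 and 4.17, 3.4-fold. Of 16 lipid-associated genes, 6 were 2-fold or more higher in set 1, with Lpl, lipoprotein lipase, at 7.33 and 2.39 and the metalloproteinase Mmp12 at 29.8 and 4.05. Their median of -0.57 became -0.15 with a mean over cells. One set 1 cell in this gate held 115805 UMIs, and single cells held 41.2% of the Mmp12 UMIs, 68.1% of the Spp1 UMIs and 74.5% of the Mfge8 UMIs of that set. All 10 MHC class II genes were higher in set 2, 3 of them by 2-fold or more, but the median of 0.50 became -0.09 with a mean over cells.

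In the T gate, too, interferon genes were higher in set 1, and 224 of 7515 genes were 2-fold or more higher in set 1 (2.98%) and 65 in set 2 (0.865%), 3.85% in either direction. Calls toward set 2 were 22.5% of the total and 32.6% with TMM scaling, and 41 genes passed toward set 2 without the cells with haemoglobin UMIs. Of 23 type I interferon genes, 19 were 2-fold or more higher in set 1, with Ifi27l2a at 10.2 and 4.63 and Isg15 at 2.14 and 0.821. Neutrophil markers in this gate summed to 10.5 and 1.11 and tumour epithelial markers to 18.5 and 9.36, and their part was not tested. Of 22 p53 targets counted, 2 were 2-fold or more higher in set 1, Bbc3 and Rrm2b. Cdkn1a was too low relative to another gate to be counted. It was at 2.55 and 1.01, 2.54-fold (2.18 to 2.95), and 1.87-fold without the set 1 cell with the most of its UMIs. Of 29 G2/M genes 2 passed toward set 2, with Mki67 at 1.38 and 1.21 and a median of 0.10 that was -0.64 without the cells with haemoglobin UMIs. The p53 median was -0.38.

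Of 29 T cell state genes counted, 26 were within 2-fold, 2 were higher in set 2 and 1 in set 1, with a median of 0.12. Foxp3, the regulatory T cell factor, was at 0.0980 and 0.481, 4.90-fold (3.01 to 8.42) from 6 and 41 cells. Trdc, the delta chain constant region of the T cell receptor, was at 0.851 and 0.420, 2.03-fold toward set 1 with 18.8% of its UMIs there in 1 cell. The costimulatory receptor Tnfrsf4 was at 1.44 and 2.98 and Ctla4 at 1.20 and 2.13, and Pdcd1, which encodes PD-1, at 1.09 and 1.36. Cytotoxic genes lay on both sides. Granzyme B, Gzmb, was at 8.26 and 3.18, 2.60-fold toward set 1, and granzyme A, Gzma, at 2.72 and 6.97, 2.56-fold toward set 2, with 22.9% of its UMIs in 1 cell. Prf1, which encodes perforin, was at 0.253 and 0.651 and Cd8a at 4.37 and 3.07. Natural killer markers, which include Gzma, summed to 5.56 and 9.33 in this gate, and their part was not tested. Iglc1, Jchain and Igha, antibody genes, led the list toward set 2 from 1 cell, which held 28724 of the 28731 Iglc1 UMIs.

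The type I interferon difference ran through all 4 gates. Of 3703 genes counted in every gate, 26 were 2-fold or more higher in set 1 in each (0.702%), and 2, Hba-a2 and Hbb-bs, in set 2. Of 17 type I interferon genes counted in every gate, 10 were among the 26. The 10 included Ifit2, Ifit3, Irf7, Usp18, Rtp4, Ddx58, Xaf1 and Zbp1. All 17 were higher in set 1 in every gate by any amount, as were 762 of the 3703 genes. Of 9 p53 targets counted in every gate, 1, Bbc3, was among the 26. Ribosomal protein genes were higher in set 2 in all gates for 21 of 22, against 609 of the 3703 genes, with none past 2-fold. The gates share the same 2 libraries, so these are not separate samples.

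**Figure D5:**
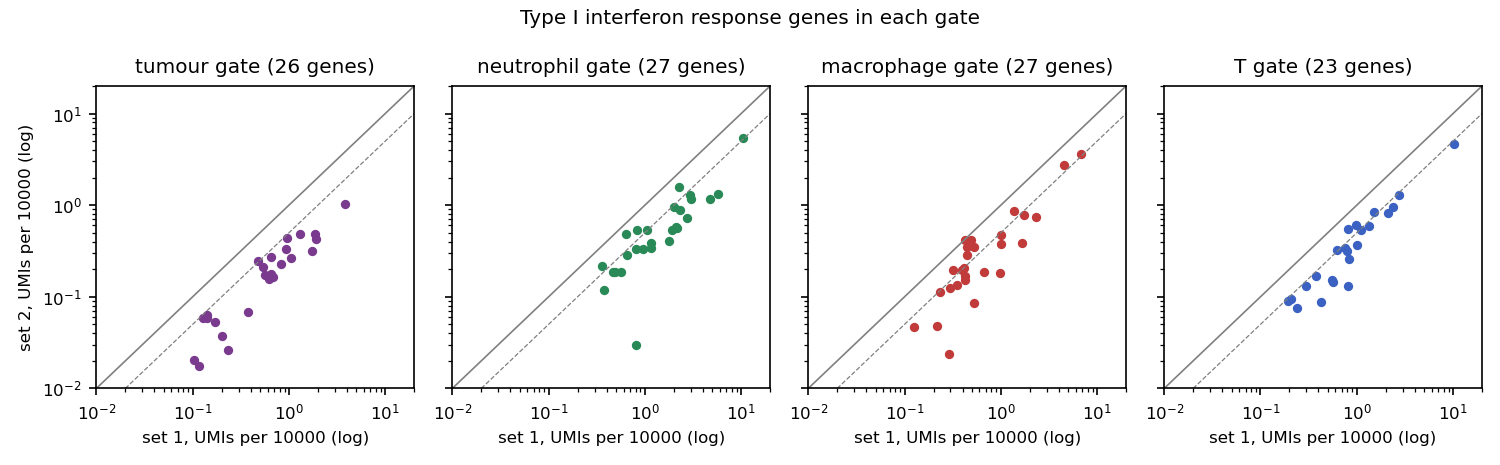
Level of each counted type I interferon response gene in set 1 (x axis) and set 2 (y axis), in UMIs per 10000 on log axes, with lines at equal levels and at 2-fold, for the 4 gates. Every point lies below the line of equal levels, and 25 of 26, 21 of 27, 18 of 27 and 19 of 23 lie past 2-fold.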

How the data were processed

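Single-cell suspensions of tumours were run on the 10x Chromium 3′ platform, per the labels' protocols. The deposited table holds whole-number counts of unique molecular identifiers (UMIs, 1 per captured transcript) for 32285 genes in 4016 cells. Per the submitters' processing notes, Cell Ranger, Seurat and the mm10 build were used, with versions not given in the sources used here. No steps of ambient RNA or doublet removal are given in the sources used here.

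Counts were summed over the cells of each gate and barcode set and scaled to UMIs per 10000, with exact Poisson 95% intervals. Ratios carry exact conditional binomial intervals and shares carry Clopper-Pearson intervals; all cover counting error only. A gene was counted in a gate at 50 UMIs or more over both sets and a level of at least 0.1 of that in the gate where it was highest. A count of 0 was set to a floor of 3 UMIs in the set. With 1 library per set, a difference of 2-fold or more is a description and no test was run. Genes named outside the 34 lists were, in each gate, the 10 highest and the 10 lowest ratios by the interval bound nearest 1, among genes at 1 UMI or more per 10000, without gate, mitochondrial and haemoglobin genes. Shares of cells were compared after thinning to 5000 UMIs per cell (2000 for gates). Shares of cells with 3 or more marker UMIs or with a haemoglobin UMI were not thinned. Scrublet in scanpy 1.11.5 called 31 and 21 doublets in sets 1 and 2 (2.06% and 0.837%), which were kept and left out in an alternative. The calculation ran in Python 3.11.15 with numpy 2.4.6, scipy 1.17.1, pandas 2.3.3 and matplotlib 3.10.9. Scaling by trimmed mean (TMM) came from edgeR 4.0.16 in R 4.3.3. The calculation of ratios was tested on simulated data. The members and lists were chosen with earlier results of these data known. Values of some genes are not reported here.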

Additional observations from a re-analysis of the deposited data

How the results depend on the processing

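No paired analysis was possible because each set is 1 library and the results come from no test. Each result was counted once for each alternative tried. Of these cases, 923 of 1274 for gene ratios, 844 of 886 for list medians and 103 of 142 for shares and counts stayed within their limits. The totals hold a cut at 500 UMIs, 200 genes and 20% mitochondrial UMIs, which 0 cells failed. Its 136 cases for gene ratios, 104 for list medians and 16 for shares and counts could not move. In 11 cases a gene ratio of 2-fold or more changed sign. The limits are the counting interval for gene ratios and shares, the interval of the median for lists and a factor of 1.5 for counts. Under 2-fold, 10 gene ratios changed sign in 36 cases and 25 list medians in 45. The type I interferon median in the tumour gate ranged from -1.90 to -1.17 and the p53 median from -1.24 to -0.92. The alternatives without doublets, without cells with haemoglobin UMIs, without a gene's leading cell, without basal or squamous cells and without dividing cells were chosen after seeing the data.

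With stricter gates, tumour shares were 38.2% and 22.7% and neutrophil shares 14.5% and 8.69%. With gates on cells thinned to 2000 UMIs, tumour shares were 33.3% and 16% and macrophage shares 5.70% and 20.2%. Dividing cells were 37.5% and 60.9% at 2 or more G2/M UMIs, 4.28% and 27.2% at 5 or more, and 59.1% and 81.9% unthinned. The tumour G2/M median was 3.17 with thinned gates, 1.07 among cells not dividing and 3.28 without basal or squamous cells.

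Genes 2-fold or more higher in set 1 in the tumour gate numbered 681 with TMM, 541 with thinned gates and 653 at 200 or more UMIs, and in set 2 they numbered 359 with thinned gates and 451 at 200 or more. In neutrophils there were 468 and 208 at 20 or more UMIs and 54 and 31 at 200 or more. In macrophages set 1 had 652 at 20 or more, 148 at 200 or more and 621 with no level filter; set 2 had 1019 with a mean over cells, 202 without cells with haemoglobin UMIs, 564 at 20 or more, 103 at 200 or more and 94 with the deeper set thinned. In the T gate set 1 had 149 with cells in exactly 1 gate, 121 with thinned gates, 494 at 20 or more and 57 at 200 or more; set 2 had 105 with a mean over cells, 41 without cells with haemoglobin UMIs, 169 at 20 or more and 16 at 200 or more.

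Log2 ratios of 2-fold or more that changed sign were Cst6 at 4.22 and Sbsn at 0.030 in the tumour gate with thinned gates, and Sbsn at 0.049 without basal or squamous cells. Without the leading cell, Arg1 was at 0.011 and Ngp at -0.11 in neutrophils, Cst6 at -1.53 in macrophages and Igha at -0.19 in T cells. Arg1 in macrophages (-0.86 to 0.27) and the tumour gate (-0.12 to 0.46) and Mki67 in T cells (-0.19 to 0.10), all under 2-fold, also changed sign without it. Without cells with haemoglobin UMIs, Gm26917 was at -0.35 in neutrophils and Cst6 at -1.70 in macrophages. With thinned gates, Cst6 was at -1.75 in macrophages and Igha at -0.31 in T cells. Where the leading cell does not account for a change of sign, the cause was not tested.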

Other observations

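Cells in no gate, 311 in set 1 and 754 in set 2, held RNA of several cell types. Tumour epithelial markers summed to 49.8 and 14.9 UMIs per 10000, neutrophil markers to 23.1 and 22.5, and erythroid markers to 0.0047 and 159. Cells with 3 or more neutrophil marker UMIs were 39.2% and 44.6%. Relative to the gates, the genes standing highest were mostly those of stromal and B cells. Fibroblast markers, which reached 3 UMIs in 10 and 20 cells (3.22% and 2.65%), summed to 46.0 UMIs per 10000 in set 1 and 31.3 in set 2, with the collagens Col1a1 at 12.7 and 8.32 and Col3a1 at 13.6 and 10.5, and the proteoglycan Dcn at 4.72 and 2.87. Endothelial markers summed to 3.11 and 7.29, and Gpihbp1, which holds lipoprotein lipase on capillaries, was at 0.188 and 1.81. B and plasma cell markers summed to 1.39 and 5.87, with the B cell receptor component Cd79a at 0.339 and 1.81 and the light chain Igkc at 0.719 and 4.16. Natural killer markers summed to 9.85 and 2.82.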
